A study of Mus musculus with 8 samples.

Results

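The mouse miRNAs mmu-miR-223, mmu-miR-142-3p and mmu-miR-142-5p, below without the species prefix, are 3 of the 567 mouse miRNAs on the array, taken by name in the deposited files. miR-223 comes from 1 hairpin precursor and the pair of miR-142 miRNAs from the opposite arms of another. They were followed in cultured marrow cells of C57BL/6, an inbred mouse strain, which had been turned into dendritic cells by the cytokine GM-CSF (40 ng/ml). Non-adherent cells were taken on day 9 in both groups. The 4 CpG samples were then exposed overnight to ODN1826 at 10 µM, a class B CpG oligonucleotide that is sensed by Toll-like receptor TLR9, and the 4 untreated samples were not. The labels describe the control as medium alone in one place and as PBS in another, and they name no control oligonucleotide. Such cultures also hold macrophage-like and granulocytic cells, and no sort of the cells is described. Total RNA of each sample was hybridised to 1 of the 8 one-colour arrays of a slide, and nothing in the labels says that replicates came from separate mice or cultures. The p-values therefore rest on a spread between samples that could be technical alone.

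Both hairpins belong to blood cells. miR-223 lies on the X chromosome and is switched on in the myeloid lineage by PU.1 and C/EBP factors. It is most abundant in granulocytes and monocytes, and in these cells it is known to restrain granulocyte production through Mef2c and to limit the inflammasome sensor Nlrp3. miR-142 is made in nearly all haematopoietic cells. Both of its arms are loaded into silencing complexes, and miR-142-3p is known to repress Il6 in mouse dendritic cells. A miRNA finds its targets mainly through its seed, bases 2 to 8 from the 5′ end, so that arms of 1 hairpin with different seeds act on different messages.

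The mature sequences are shown because each member carries its own seed. They are RefSeq's on GRCm38.p6, written 5′ to 3′ with the seed in capitals, and all 3 members matched an entry (miR-223 to miR-223-3p, the miR-142 arms to miR-142a-3p and miR-142a-5p).
miR-223-3p: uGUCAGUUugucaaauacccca
miR-142a-3p: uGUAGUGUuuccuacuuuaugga
miR-142a-5p: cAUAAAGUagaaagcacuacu
They are 22, 23 and 21 bases long. None of the seeds was shared with another of the 1679 mature miRNA names of the same table, nor between the members. The hairpins are shown with both mature arms in capitals, to place the members in their precursors.
Mir142: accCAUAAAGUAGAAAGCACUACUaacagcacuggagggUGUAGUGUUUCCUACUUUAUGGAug
Mir223: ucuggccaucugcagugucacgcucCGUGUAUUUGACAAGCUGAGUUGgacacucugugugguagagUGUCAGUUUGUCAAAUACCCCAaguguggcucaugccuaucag
The Mir142 hairpin lies on the plus strand at chr11:87756864-87756927 and spans 64 bases, with 15 bases between its arms. In its predicted lowest-energy fold, 19 of the 21 bases of the 5p arm paired with the 3p arm. RefSeq also places an antisense miRNA gene, Mir142b, over the same site. The Mir223 hairpin, at chrX:96242817-96242926 on the plus strand, lies within the long non-coding RNA gene F630028O10Rik, and 15 of the 23 bases of its 5p arm paired with the 3p arm. The values below are of the 3p arm of Mir223 and of both arms of Mir142, and the 5p arm of Mir223 is not analysed here.

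The CpG arrays were brighter as a whole. The summed deposited signal of all mouse miRNAs was 93196 to 154812 intensity units on the CpG arrays, against 70297 to 82277 on the untreated ones, a 1.54-fold difference of geometric means (exact permutation p = 0.0286, two-sided, the smallest possible with 4 against 4 arrays). For the main comparison signals were therefore taken relative to the 75th percentile of the 177 miRNAs detected on all 8 arrays, which was 1.74-fold higher with CpG. Whether more miRNA per amount of RNA or a technical gain made the CpG arrays brighter was not tested, and the members' direction depends on how it is treated.

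All 3 members were measured well above background on every array. Each had 2 probes of 10 spots per array, and all 480 spots of the 8 arrays were well above background, none was saturated, and 32 were left out as outliers. The coefficient of variation over the spots of a probe lay between 1.29% and 18.1%. In the array's mm9 annotation the probes of miR-223 cover chrX:93438224-93438244 and chrX:93438225-93438244, those of miR-142-3p chr11:87570405-87570427 and chr11:87570406-87570427, and those of miR-142-5p chr11:87570371-87570389 and chr11:87570372-87570389. Those of a member thus differ by 1 base at one end. The 21-base probe of miR-223 was 4.25 to 4.91 times as bright as the 20-base probe on CpG arrays and 4.06 to 4.49 times on untreated arrays. For miR-142-3p the 23-base probe was 2.79 to 2.86 times as bright as the 22-base one with CpG and 2.58 to 2.92 times without. For miR-142-5p the 19-base and 18-base probes were nearly equal, at 0.98 to 1.03 and 0.95 to 1.04 times. Brightness therefore depends on the probe as well as the miRNA. Ratios between miRNAs are used below only to follow how they changed between groups. Shares and ranks by brightness carry the same dependence on the probe and are not amounts of miRNA.

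miR-223 was lower with CpG after scaling to the 75th percentile, while neither miR-142 arm passed the test on that scale. Other scalings, given below, changed these calls. The deposited total gene signal of miR-223 was 1505, 2150, 1922 and 3001 intensity units in CpG replicates 1 to 4, against 1586, 2062, 1842 and 1812 in untreated replicates 1 to 4. In these unscaled units the groups overlapped, with the lowest and the highest of the 8 values both in the CpG group. On the scaled log2 scale, where 0 is the array's 75th percentile, the 4 CpG values were 2.77, 2.65, 2.92 and 2.97 and the 4 untreated values 3.47, 3.62, 3.18 and 3.46. The 4 CpG samples all lay below the 4 untreated ones on this scale. The means were 2.83 ± 0.15 with CpG and 3.43 ± 0.18 without (SD, n = 4 each), a difference of -0.60 (SE 0.15, 95% interval -0.94 to -0.27), or a 1.52-fold lower signal (limma adjusted p = 0.0284). Both probes differed alike, by -0.59 for the 21-base and -0.65 for the 20-base probe. The call rested on several samples: with 1 array left out the difference was -0.66 to -0.53, and it no longer passed without CpG replicate 2 (limma adjusted p = 0.0601) or 3 (0.0646) or untreated replicate 1 (0.127), 2 (0.101) or 4 (0.16).

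**Figure D1:**
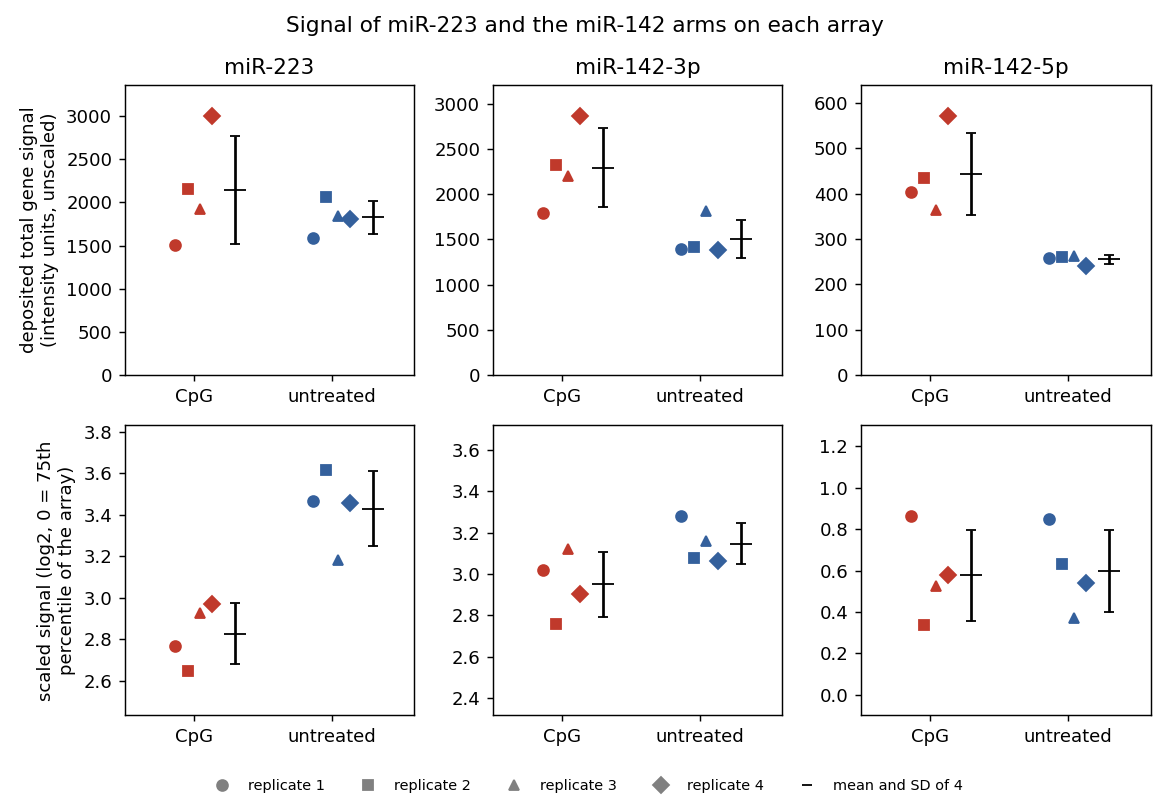
The upper panels plot the deposited total gene signal of each member in intensity units from 0, and the lower ones the scaled signal on a log2 axis, for 4 CpG samples (red, left) and 4 untreated samples (blue, right), with the mean and SD beside them. The CpG values of miR-223 lie below the untreated ones only after scaling, and those of miR-142-5p above them only before it.

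miR-142-3p, the arm known to repress Il6, did not pass the test after the same scaling. Its total gene signal was 1795, 2321, 2199 and 2866 units in CpG replicates 1 to 4 and 1391, 1418, 1816 and 1382 units in untreated replicates 1 to 4. Only CpG replicate 1, at 1795, fell within the untreated range, just under untreated replicate 3. The scaled log2 signal averaged 2.95 ± 0.16 with CpG and 3.15 ± 0.10 without (SD, n = 4 each), and the groups overlapped. The difference was -0.20 (SE 0.14, 95% interval -0.50 to 0.11, limma adjusted p = 0.273), with -0.19 for the 23-base and -0.20 for the 22-base probe.

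For miR-142-5p the scaled difference was the smallest of the members. Its total gene signal was 403, 434, 365 and 571 units in CpG replicates 1 to 4, against 258, 260, 262 and 240 in untreated replicates 1 to 4. Every CpG sample lay above every untreated one before scaling, and the untreated samples were close together. After scaling the values ranged from 0.34 to 0.86 with CpG and from 0.37 to 0.85 without, a nearly complete overlap. The means were 0.58 ± 0.22 with CpG and 0.60 ± 0.20 without (SD, n = 4 each), a difference of -0.02 (SE 0.16, 95% interval -0.39 to 0.35, limma adjusted p = 0.926).

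Among all 212 miRNAs tested, 14.2% passed the threshold of an adjusted p of 0.05 in either direction, 6.6% lower and 7.55% higher with CpG. Of the members, 1 of 3 passed, in the lower direction. Groups that did not overlap were found in 26.9% of tested miRNAs, 19.8% with CpG lower and 7.08% with CpG higher, and in 1 of the 3 members, with CpG lower. The median difference of all tested miRNAs was -0.19, so that miR-223 lay 0.41 below it, while miR-142-3p lay at it (-0.002 relative to it) and miR-142-5p 0.17 above it. Counted from the lowest difference, miR-223 was at position 13, miR-142-3p at 106 and miR-142-5p at 136.

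**Figure D2:**
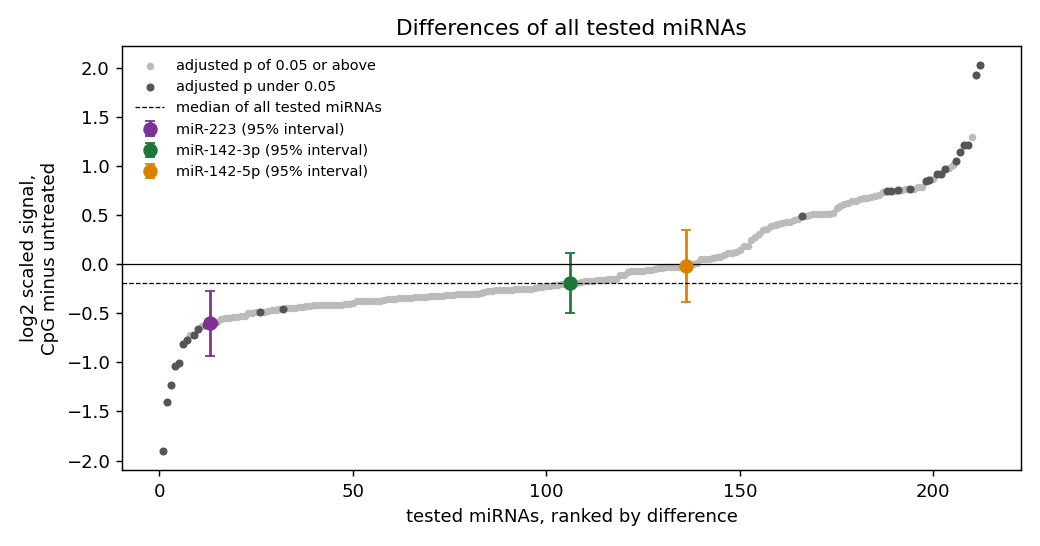
Differences in scaled log2 signal, CpG minus untreated, of the 212 tested miRNAs in rank order, with the members in colour and their 95% intervals. miR-223 lies at position 13 from the low end with its interval below 0, and the intervals of both miR-142 arms include 0.

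The sign of each member's difference depended on the scaling. Without scaling miR-223 was at 0.20 (95% interval -0.35 to 0.74, limma adjusted p = 0.466), miR-142-3p rose by 0.60 (limma adjusted p = 0.0458) and miR-142-5p by 0.78 (limma adjusted p = 0.0217), where 41.5% of all tested miRNAs were higher and 0 lower. Unscaled groups that did not overlap, with CpG higher, were found in 39.6% of tested miRNAs and in 1 member, miR-142-5p. On 4 bright control features named hur, whose brightness was 1.18-fold higher with CpG (exact permutation p = 0.143), miR-223 was at -0.045 (limma adjusted p = 0.789), and miR-142-3p rose by 0.36 (limma adjusted p = 0.0282) and miR-142-5p by 0.54 (limma adjusted p = 0.00929), where 34% of all tested miRNAs passed and 33% were higher. The median of all tested miRNAs was 0.60 without scaling and 0.36 on the control features. These 3 scalings each shift all miRNAs of an array by 1 constant, so the gaps between the members are the same in them by construction.

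**Figure D3:**
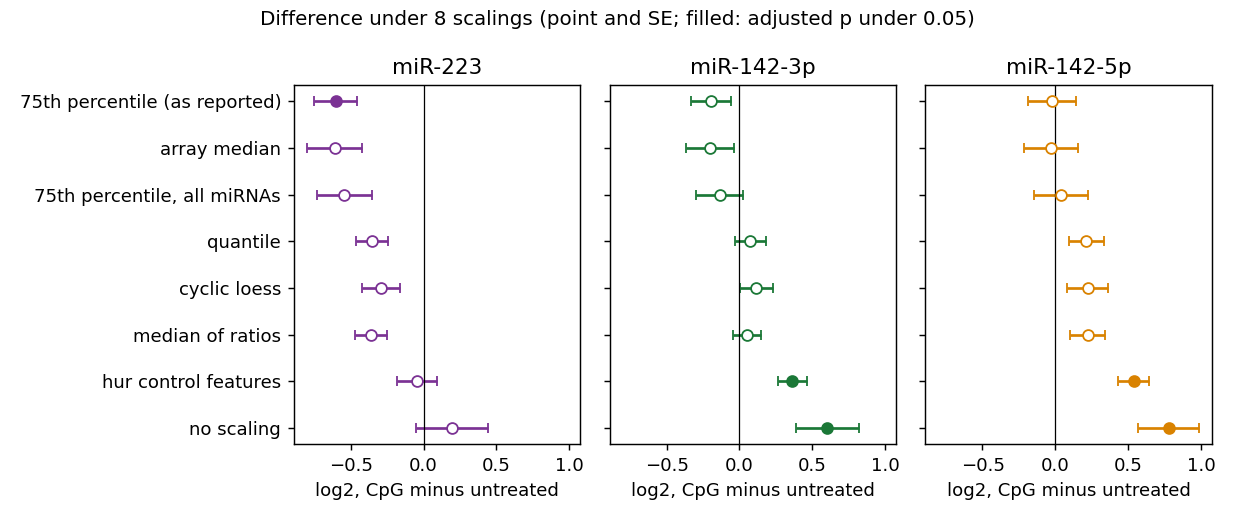
Difference in log2 signal, CpG minus untreated, of each member (point, with its SE) under 8 scalings from the reported one at the top to none at the bottom. Filled points passed the threshold. All points of miR-223 except the unscaled one lie below 0, and both miR-142 arms lie above 0 from quantile normalization downwards.

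The share of the summed signal divides each array by its own total, which is itself a scaling. That total was 1.54-fold higher with CpG, and a share also falls when other miRNAs gain signal. miR-223 took 1.61, 1.88, 1.92 and 1.94% of the signal of all mouse miRNAs in CpG replicates 1 to 4, against 2.24, 2.93, 2.24 and 2.53% in untreated replicates 1 to 4. Its highest CpG share was below its lowest untreated share. The means were 1.84 ± 0.15% with CpG and 2.49 ± 0.33% without (SD, n = 4 each), a difference of -0.65 percentage points (exact permutation p = 0.0286, the smallest possible, 0.0857 after Benjamini-Hochberg adjustment over 6 shares and ratios). A single measure at the smallest possible p cannot pass this adjustment, and none of the 6 passed. By brightness miR-223 stood at ranks 12 to 13 of the 567 with CpG and 5 to 9 without. Shares that did not overlap, with CpG lower, were found in 11.3% of the 177 miRNAs detected on all arrays, and with CpG higher in 8.47%.

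The miR-142 arms kept shares that overlapped between the groups. miR-142-3p took 1.93, 2.03, 2.20 and 1.85% in CpG replicates 1 to 4 and 1.97, 2.02, 2.21 and 1.93% in untreated replicates 1 to 4. The means of 2.00 ± 0.15% and 2.03 ± 0.12% (SD, n = 4 each) differed by -0.03 percentage points (exact permutation p = 0.686, adjusted p = 0.686). miR-142-5p took 0.43, 0.38, 0.36 and 0.37% with CpG, against 0.37, 0.37, 0.32 and 0.33% without. The mean share of this arm was 0.386 ± 0.031% and 0.347 ± 0.025% (SD, n = 4 each), with CpG higher by 0.039 percentage points (exact permutation p = 0.143, adjusted p = 0.214), and 2 of 4 CpG samples lay above all untreated ones. The 3 members together held 3.97 to 4.48% of the signal with CpG and 4.58 to 5.32% without, beside miR-21, whose share was 24.7 to 28.1% with CpG and 24.6 to 26.2% without.

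**Figure D4:**
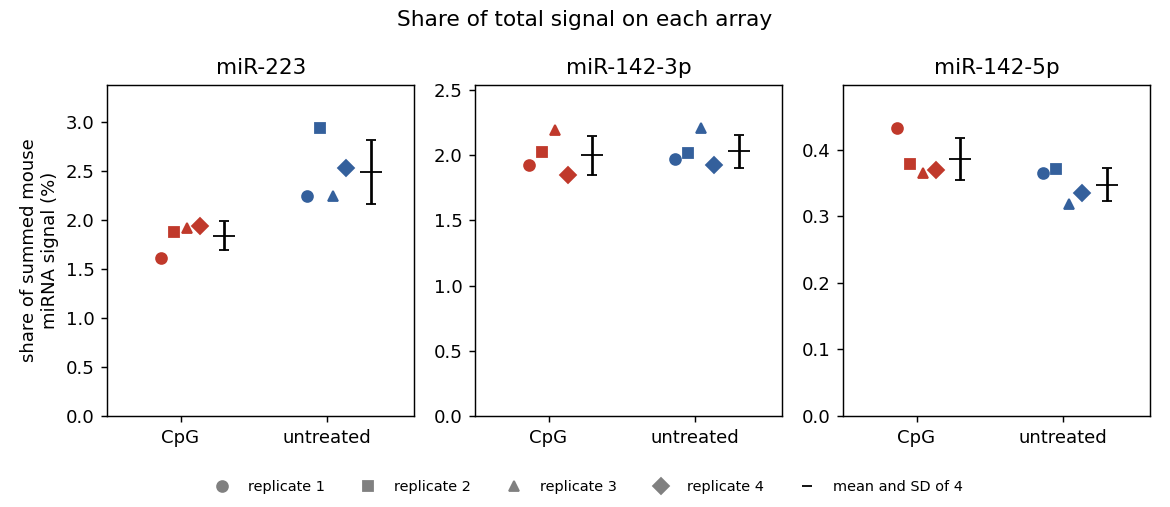
Share of the summed total gene signal of all mouse miRNAs, in percent from 0, of each member in 4 CpG (red) and 4 untreated (blue) samples, with mean and SD. The CpG shares of miR-223, up to 1.94%, lie below the untreated ones, from 2.24%, and the shares of the miR-142 arms overlap.

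The arm ratio of miR-142 asks whether the strands of 1 hairpin changed unequally. The signal of the 3p arm was 4.46, 5.35, 6.03 and 5.01 times that of the 5p arm in CpG replicates 1 to 4 and 5.39, 5.45, 6.92 and 5.75 times in untreated replicates 1 to 4. In 3 of the 4 CpG samples the ratio was below every untreated one, and CpG replicate 3 lay within the untreated range. The log2 ratio averaged 2.37 ± 0.18 with CpG and 2.55 ± 0.17 without (SD, n = 4 each), a difference of -0.17 that did not pass (exact permutation p = 0.229, adjusted p = 0.274). The 4 ways of pairing a 3p probe with a 5p probe gave -0.18 to -0.17.

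Set against each arm of miR-142, miR-223 had a lower mean with CpG, but neither ratio passed after adjustment. The ratio of miR-142-5p to miR-223 was 0.27, 0.20, 0.19 and 0.19 in CpG replicates 1 to 4, against 0.16, 0.13, 0.14 and 0.13 in untreated replicates 1 to 4. All 4 CpG ratios lay above the untreated ones. The log2 ratio averaged -2.25 ± 0.24 with CpG and -2.83 ± 0.16 without (SD, n = 4 each), a difference of 0.58, or 1.5-fold (exact permutation p = 0.0286, adjusted p = 0.0857). The ratio of miR-142-3p to miR-223 was 1.19, 1.08, 1.14 and 0.95 with CpG, against 0.88, 0.69, 0.99 and 0.76 without. Here CpG replicate 4 fell below untreated replicate 3. The log2 ratio averaged 0.12 ± 0.14 and -0.29 ± 0.23 (SD, n = 4 each), a difference of 0.41 (exact permutation p = 0.0571, adjusted p = 0.114). Over pairs of probes these differences ranged from 0.57 to 0.63 for the 5p arm and from 0.39 to 0.46 for the 3p arm. Of all 15576 pairs among the 177 miRNAs, 18.3% had ratios that did not overlap between the groups, against 1 of these 3 pairs.

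**Figure D5:**
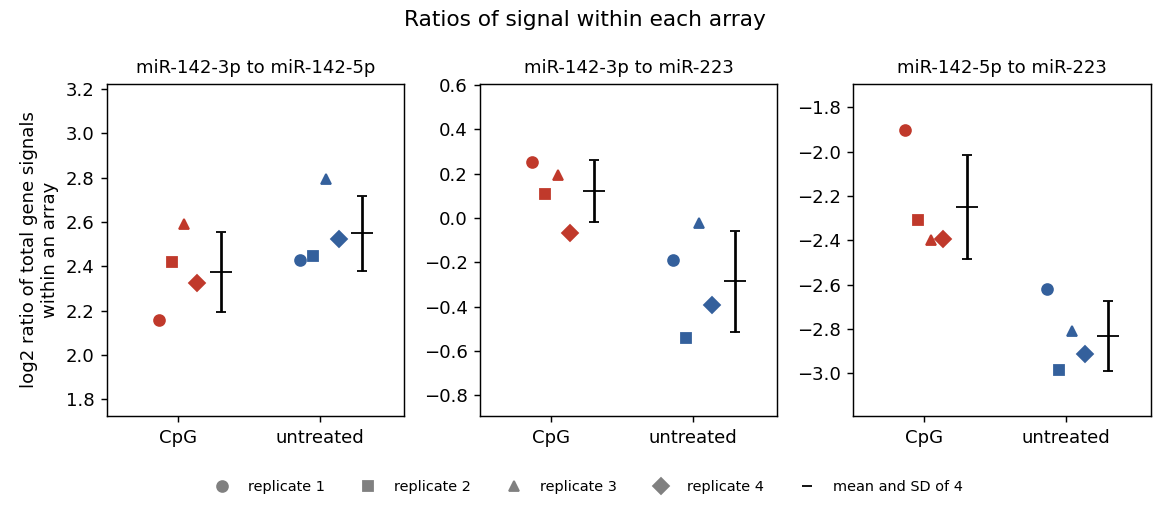
Log2 ratio of total gene signals within each array for the miR-142 arms and for each arm against miR-223, in 4 CpG (red) and 4 untreated (blue) samples, with mean and SD. The groups do not overlap for miR-142-5p to miR-223 and overlap for the other 2 ratios.

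Within each slide row, which held 2 arrays of each group, miR-223 differed by -0.59 and -0.61 in scaled log2 signal. Its share differed by -0.61 and -0.69 percentage points, and the log2 ratio of miR-142-5p to miR-223 by 0.62 and 0.54. The log2 arm ratio of miR-142 differed by -0.24 and -0.11. In RNA of a mixed culture, fewer cells that carry a miRNA and less of it per cell cannot be told apart.

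The miRNAs whose scaled signal followed a member most closely over the 8 arrays were different for each. For miR-223 they were miR-139-5p (Pearson r = 0.98), miR-340-3p (0.96) and miR-20b (0.96), and with group means taken out r was 0.90, 0.82 and 0.80. Of these miR-139-5p fell with CpG, by 1.01 on the log2 scale (limma adjusted p = 0.00768). For miR-142-3p they were miR-801 (0.93), miR-30b (0.92) and miR-365 (0.88), with 0.93, 0.86 and 0.82 once group means were taken out, of which miR-801 fell by 1.04 (limma adjusted p = 0.0284). For miR-142-5p they were miR-24-1* (0.94), miR-24-2* (0.93) and miR-320 (0.92), with 0.95, 0.95 and 0.97 once group means were taken out, and none of these passed. Between the miR-142 arms r was 0.45, and between miR-223 and the arms 0.66 for 3p and 0.24 for 5p. With group means taken out these were 0.55 between the arms, 0.21 for 3p and 0.44 for 5p, so that the order of the last pairs turned round. Of the other miRNAs detected on all arrays, the 5p arm included, 55.7% had an r with miR-142-3p at least as high as that of the 5p arm. These values share the arrays and their scaling and are descriptions over 8 samples.

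Other miRNAs that PU.1 or C/EBP alpha are reported to switch on did not share 1 direction. All 12 on the list were tested, and 2 rose, 1 fell and 9 did not pass, with a median difference of -0.25 beside -0.19 over all tested miRNAs, whereas without scaling 6 rose and 0 fell, with a median of 0.54 beside 0.60. Over all tested miRNAs 7.55% rose and 6.6% fell after scaling, and 41.5% rose without it. miR-155, a Toll-like receptor-induced miRNA, rose by 1.92 and miR-146a, a feedback regulator of the same receptors, by 0.92, while miR-30c fell by 0.81 (limma adjusted p = 0.000956, 0.0355 and 0.0127). The brightest of the rest were miR-24 (-0.35), miR-29a (0.05), miR-23a (-0.56) and miR-27a (-0.63), with limma adjusted p of 0.199, 0.843, 0.0566 and 0.0764.

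Marker miRNAs of other cell types were checked beside the members. miR-150 of mature lymphocytes was not detected on any array, and nor were the erythroid (3 of 3), endothelial (2 of 2), stromal (3 of 3) or liver (1 of 1) markers. Of the lymphoid list miR-181a and miR-181b were detected on all arrays at -0.48 and -1.04 with CpG and -0.29 and -0.80 without on the scaled log2 scale, and neither passed. The summed scaled signal of that list was 0.97 to 1.59 with CpG and 1.29 to 1.6 without. Of the epithelial list 3 of 5 were detected, miR-200b on all arrays and miR-200c and miR-141 on 4 CpG arrays and 1 untreated array. Their scaled differences were -0.59, -0.17 and -0.06. The brighter CpG arrays detected more mouse miRNAs altogether, 213 to 236 against 191 to 203 on untreated arrays. The epithelial list summed to 0.11 to 0.12 with CpG and 0.14 to 0.17 without. The muscle list, of which miR-206 was detected on 3 CpG arrays, summed to 0.035 to 0.063 with CpG and 0.032 to 0.049 without. The neuron list, of which miR-128 was detected on all arrays, summed to 0.11 to 0.13 with CpG and 0.12 to 0.15 without. All these sums count undetected miRNAs too, with values under the floor set to it (0.0107 in scaled signal). The lowest muscle sum, 0.032, equals that of the stromal list, of which none was detected. None of these detected markers passed the test after scaling. Without scaling miR-181a (limma adjusted p = 0.0347), miR-141 (0.0435) and miR-206 (0.0293) were higher with CpG, as were 41.5% of all tested miRNAs. miR-141 and miR-206 entered the test only through their detection on CpG arrays (4 and 3, against 1 and 0 untreated arrays). Their unscaled tests therefore cannot show that these markers rose. The list holds no miRNA that tells dendritic cells from granulocytes or macrophages, which also carry miR-223, and the part of these cells in the lower share of miR-223 was not tested.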

How the data were processed

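The authors deposited, per array, the intensity of each spot, background-subtracted and detrended, and a total gene signal per miRNA, also an intensity. Both came from Feature Extraction 9.5.3.1 (Agilent) with mm9 annotation, per the file headers. Neither is scaled between arrays. The authors' series table of 260 miRNAs equalled these totals within 0.1% (2080 of 2080 values). The submitters' processing notes name limma.

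Spots without outlier flags were averaged per probe and then per miRNA, and divided by the array's 75th percentile over the 177 miRNAs detected on all arrays. A floor (log2 of -6.55) was set before log2. The 212 miRNAs detected on at least 3 of 4 arrays of a group were compared by the moderated test of limma 3.58.1 (R 4.3.3; two-sided; Benjamini-Hochberg over the 212; threshold 0.05). The fit was tested on simulated data. Shares and ratios use the deposited total gene signal and exact two-sided permutation over 70 arrangements, adjusted over 6 measures. Hairpins were folded with ViennaRNA 2.7.2. The number of arrays limits precision.

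The members and lists were chosen with earlier results of these data known. miRNAs named are the members, the 3 most alike of each, and of the PU.1 and C/EBP list those that passed and the 4 brightest others. Alternatives were other scalings, backgrounds, summaries, filters, floors, blocks, denominators and samples left out. An offset of 50 with normexp, and a sum without miR-21 and miR-720, were chosen after seeing the data. Samples with the same replicate number also share a number in their descriptions and lie side by side on the slide, though no pairing is stated. They did not deviate together throughout (correlations 0.28, -0.26, 0.25 and 0.10 for numbers 1 to 4), and the numbers were not taken as pairs in the main tests. Such correlations cannot exclude pairing, so results with the number as a block are given below.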

Additional observations from a re-analysis of the deposited data

How the results depend on the processing

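The lower scaled signal of miR-223 passed in 12 of 27 alternatives and was negative in 25. All 12 kept the main scaling, to the 75th percentile of miRNAs detected on all arrays used, and under no other scaling did it pass. It turned positive without scaling (0.20) and in the authors' deposited series table (0.19). It no longer passed with the array median (-0.61), the 75th percentile over all miRNAs (-0.54), quantile normalization (-0.36), cyclic loess (-0.29), median of ratios (-0.36), the hur control features (-0.045), no filter on dim miRNAs (-0.60, with more miRNAs tested) and without CpG replicates 2 and 4 (-0.59). With 1 array left out it ranged from -0.66 to -0.53 (limma adjusted p 0.0317 to 0.16), and the call ended without CpG replicate 2 or 3 or untreated replicate 1, 2 or 4.

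miR-142-3p changed sign, to 0.60 in both unscaled forms and to 0.076 with quantile normalization, 0.12 with cyclic loess, 0.049 with median of ratios and 0.36 on the control features. Leaving out 1 array gave -0.25 to -0.10. miR-142-5p did so at 0.78 in both unscaled forms, 0.038 with the 75th percentile over all miRNAs, 0.21 with quantile normalization, 0.22 with cyclic loess, 0.22 with median of ratios, 0.54 on the control features, 0.039 with normexp and an offset of 50, 0.10 without CpG replicates 2 and 4, and from -0.12 to 0.11 with 1 array left out. The cause of these changes was not tested, apart from the scaling itself.

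Every alternative for a share still divided by a sum over the array, so none of them tried another scaling between arrays. The share of miR-223 stayed negative in all 17 alternatives (-1.13 to -0.50 percentage points), that of miR-142-5p stayed positive in 17, and the ratios of miR-142-3p and miR-142-5p to miR-223 (0.32 to 0.51 and 0.47 to 0.68) and the miR-142 arm ratio (-0.25 to -0.09) kept their sign in 14 each. None of these passed after adjustment in any alternative, and those with paired signs, within slide rows or with 2 arrays left out could not have. The share of miR-142-3p turned to 0.023 with normexp, 0.032 without CpG replicates 2 and 4, and -0.095 to 0.030 with 1 array left out.

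With the replicate number as a block miR-223 was at -0.60 (limma adjusted p = 0.0464), miR-142-3p at -0.20 and miR-142-5p at -0.02, and 38 miRNAs passed. Paired by number the share of miR-223 was lower by 0.65 percentage points, and the miR-142 arm ratio by 0.17, in 4 of 4 pairs (exact sign-flip p = 0.125 for each, the smallest possible). The share of miR-142-5p and the ratios of both arms to miR-223 were likewise higher in 4 of 4 pairs (exact sign-flip p = 0.125 for each). Only the share of miR-142-3p did not go 1 way (exact sign-flip p = 0.25). The block changed no call of a member.

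The count of called miRNAs, 30 as reported, was 88 without scaling, 93 in the authors' deposited series table, 18 with the array median, 19 with quantile normalization, 17 with cyclic loess, 72 on the control features, 93 with normexp, 143 with its offset of 50, 3 with no filter, 48 with a floor 2 times higher, 2 without CpG replicates 2 and 4, and 5 to 71 with 1 array left out (71 without CpG replicate 1, 13 without 2 and 7 without 3, and 11, 5 and 14 without untreated replicate 1, 2 and 4). Of the called miRNAs 53.3% were higher with CpG as reported. The share was 100% in both unscaled forms, 97.2% on the control features, 77.3% with median of ratios, 69.6% with the 75th percentile over all miRNAs, 64.7% with cyclic loess, 7.53% with normexp and 2.8% with its offset of 50.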
